A study of Mus musculus with 93 samples.

Results

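Transcripts of 10 enzymes of mitochondrial beta-oxidation were followed in the livers of mice that received a single oral dose of a synthetic triglyceride or of a synthetic PPARα agonist. The genes were Acadvl, Acadl, Acadm, Acads, Hadha, Hadhb, Hadh, Eci1, Decr1 and Acaa2. The genes were listed with earlier results of these data known. The rule took every probeset of the deposited table that the annotation of the Affymetrix Mouse Genome 430 2.0 array assigns to one of them. The authors had filtered that table on the interquartile range, so measured variation decided which probesets of the array were available. The 10 genes took up 17 of the 11412 non-control probesets and 10 of the 6661 genes in the table. Hadhb, Hadh and Acaa2 had 3 probesets each, Decr1 had 2 and each other gene had 1. All 17 stayed in every test, and each gene is described by its brightest probeset unless another is named.

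All mice were male and were fasted for 4 hours before the gavage, and the livers were taken 6 hours after it. PPARα-null mice (129S4/SvJae) lack the receptor in every tissue and WT mice (129S1/SvImJ) are of a different substrain, so genotype and substrain cannot be told apart. In a first run, mice of both genotypes received WY14643 (5 PPARα-null and 4 WT), fenofibrate (5 and 5), the triglyceride of C22:6 (5 and 5), C20:5 (4 and 5) or C18:1 (5 and 5), or the carboxymethyl cellulose vehicle as control (5 and 3). A later run held C18:3 (5 PPARα-null and 5 WT), C18:2 (5 and 4), C10:0 (5 and 5) and vehicle controls of its own (4 and 4). Triglycerides were given as 400 µl of oil, whereas an agonist dose was 4 mg in the vehicle, so that triglyceride and control differed in oil as well as in fatty acid. The first-run controls and the WY14643 mice were 12 to 20 weeks old and all other mice 8 to 24 weeks, and for fenofibrate, C22:6, C20:5 and C18:1 this difference in age range cannot be told apart from the treatment.

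Mitochondrial beta-oxidation shortens fatty acyl-CoA stepwise in a repeated cycle of dehydrogenation, hydration, a further dehydrogenation and thiolytic cleavage, and it supplies the fasting liver with energy and with acetyl-CoA for ketone bodies. The acyl-CoA dehydrogenases take the first step, each over its own range of chain lengths, the trifunctional protein carries out the later steps on long chains and soluble matrix enzymes carry them out on shorter ones. Double bonds of unsaturated fatty acids need auxiliary enzymes that move or reduce them. PPARα is a nuclear receptor that binds fatty acids and fibrates and acts on DNA as a heterodimer with RXR at direct repeats of a hexamer close to AGGTCA, and several genes of this pathway are known targets.

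As the comparisons with PPARα-null mice ask which changes need this receptor, the 250 bases before the annotated start of each gene were read from RefSeq (GRCm38.p6), in which 8 of the 10 genes matched. The sequences of the 2 genes that hold the hexamer AGGTCA, and the stretch between Hadha and Hadhb, are shown 5′ to 3′ in the direction of transcription, with AGGTCA or its reverse complement TGACCT in capitals.
Acadvl (chr11:70015429-70015678, minus strand): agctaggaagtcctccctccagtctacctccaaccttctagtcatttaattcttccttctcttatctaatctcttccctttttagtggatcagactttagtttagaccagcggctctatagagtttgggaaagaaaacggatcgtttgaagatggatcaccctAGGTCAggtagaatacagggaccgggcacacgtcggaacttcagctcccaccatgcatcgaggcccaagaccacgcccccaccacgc
Acadm (chr3:153944644-153944893, minus strand): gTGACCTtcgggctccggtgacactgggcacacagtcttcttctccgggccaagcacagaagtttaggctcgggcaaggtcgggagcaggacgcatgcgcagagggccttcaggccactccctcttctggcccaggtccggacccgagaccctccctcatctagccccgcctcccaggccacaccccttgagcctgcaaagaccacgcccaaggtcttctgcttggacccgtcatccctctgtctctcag
Hadhb (chr5:30155003-30155252, plus strand): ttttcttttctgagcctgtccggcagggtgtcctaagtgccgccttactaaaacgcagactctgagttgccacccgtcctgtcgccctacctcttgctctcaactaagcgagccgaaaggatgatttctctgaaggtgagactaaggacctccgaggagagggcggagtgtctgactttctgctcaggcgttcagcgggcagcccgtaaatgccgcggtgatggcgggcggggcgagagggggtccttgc
AGGTCA on either strand was found in 2 of the 8 windows, against 14.0% of the 32851 windows of all RefSeq genes. The direct repeat of AGGTCA with 1 base between the copies, allowing 2 mismatches and searched on both strands, was found in 0 of the 8 against 3.24% of all windows. The third sequence holds neither motif and is shown because the starts of Hadha and Hadhb, the genes of the 2 subunits of the trifunctional protein, face away from each other with 272 bases between them, so that most of the stretch lies before both genes. These matches describe the letters of the windows only.

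The table held GC-RMA signals, given here as log2, and a change is a difference of mean log2 signal with its standard error from a limma fit over all 93 livers. A change was called at a Benjamini-Hochberg adjusted p under 0.05 over all 11412 probesets. The array median ran from 135 to 145 signal units in the first run and from 154 to 167 in the later run, so that levels were compared within a run only. The hepatocyte markers Alb, Ttr, Apoa1, Tat, Cyp2e1, Cps1 and Hnf4a were at 10.08 to 14.56 log2 in every liver. A Ppara probeset was at 5.94 to 7.93 log2 in the 48 PPARα-null livers and at 8.10 to 9.52 in the 45 WT livers, without overlap, and the other 2 Ppara probesets overlapped between the genotypes. In whole liver a lower signal from fewer hepatocytes and from less RNA per hepatocyte cannot be told apart.

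Without treatment, PPARα-null livers had lower transcript levels of most of these enzymes than WT livers, although not of all. In the first run 6 of the 10 genes were lower, against 5.01% of all genes, and in the later run 7 were, against 4.02%. The median difference was -0.60 log2 in the first run and -0.80 in the later run, where the median over all genes was 0.01 and 0.02. The 7 hepatocyte markers summed to 15.99 to 16.06 log2 in PPARα-null livers and 16.03 to 16.05 in WT livers of the first run, and to 16.48 to 16.60 and 16.47 to 16.54 in the later run. Sums over stellate cell and endothelial markers reached higher in PPARα-null livers and touched or overlapped the WT range. The 5 measured stellate cell markers summed to 10.49 to 11.54 log2 in PPARα-null livers against 10.21 to 10.49 in WT livers of the first run, and to 10.68 to 11.98 against 10.46 to 10.73 in the later run. The 4 endothelial markers summed to 9.42 to 9.98 against 9.04 to 9.43, and to 9.98 to 10.18 against 9.71 to 10.04. The 7 macrophage markers summed to 8.20 to 10.89 against 9.24 to 10.07, and to 9.98 to 10.76 against 9.46 to 10.16, with overlap in both runs. None of the hepatocyte, macrophage and stellate cell markers nor the single measured lymphocyte marker was called. In the first run 1 endothelial marker was called higher, and Alas2, a marker of red blood cells, was called higher in both runs, by 0.59 and 0.73. Their part in the differences of the 10 enzymes was not tested.

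Eci1, the isomerase that shifts double bonds at odd positions so that the cycle can go on, had the lowest level relative to WT. Its signal was 8.15, 8.15, 8.08, 7.93 and 8.00 log2 in the untreated PPARα-null livers of the first run, against 9.87, 9.77 and 10.08 in WT livers. In the later run it was 8.58, 8.26, 8.33 and 8.38 against 10.23, 10.28, 10.19 and 10.28. Each PPARα-null liver was thus far below each WT liver, and the difference was -1.85 ± 0.13 (adjusted p = 4.3e-20) in the first run and -1.86 ± 0.13 (5.4e-21) in the later run, which is 0.278 and 0.276 of the WT level. Acadvl, the dehydrogenase of very long chains, was at 9.25, 9.16, 9.30, 9.26 and 9.37 log2 against 10.71, 10.60 and 10.71 in WT livers of the first run, a difference of -1.41 ± 0.08 (4e-24). Acadl, the dehydrogenase of long chains, was at 9.41, 9.35, 9.75, 9.33 and 9.07 log2 against 10.73, 10.79 and 10.80, a difference of -1.39 ± 0.14 (1.3e-12). Neither gene overlapped between the genotypes in either run, and the later run gave -1.51 for Acadvl and -1.37 for Acadl.

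The remaining lower genes differed by less than 1 log2 unit. Hadha, the trifunctional protein subunit with hydratase and dehydrogenase activity, differed by -0.69 (adjusted p = 6.8e-07) and -0.78 (5.7e-09) in the first and later run. Decr1, the reductase for conjugated double bonds, differed by -0.75 (1.2e-08) and -0.82 (2.2e-10), and Acaa2, the thiolase for shorter chains, by -0.41 (5.4e-05) and -0.45 (3e-06). Hadhb, the thiolase subunit of the trifunctional protein, was called only in the later run, at -0.61 (0.0013) against -0.35 (0.12) in the first run. A second Hadhb probeset, 1426522_at, was called in both, at -0.67 (5.4e-05) and -0.74 (3.2e-06), and the difference between the runs was not tested. In a fit of the 2 groups alone the adjusted p of Acaa2 was 0.051 in the first run and 0.11 in the later run, and that of Hadhb in the later run 0.099. With a replicate block the adjusted p of Acaa2 in the later run was 0.11. Each block lay within 1 genotype, so that fit cannot decide a difference between genotypes.

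Acadm, Hadh and Acads did not pass the test in either run. Acadm, the dehydrogenase of medium chains, was at 10.98 to 11.17 log2 in PPARα-null livers and 11.01 to 11.23 in WT livers of the first run, and the difference was -0.05 with a 95% confidence interval of -0.21 to 0.12. In the later run it was -0.19 with an interval of -0.36 to -0.03, which leaves out 0, but an adjusted p of 0.16. Hadh, the dehydrogenase of the third step for short and medium chains, differed by -0.07 (-0.32 to 0.18) and -0.02 (-0.26 to 0.23). Acads, the dehydrogenase of short chains, spread widely between livers, from 4.52 to 9.08 log2 over all livers, and its differences of -0.52 and -0.83 had adjusted p = 0.37 and 0.12.

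**Figure D1:**
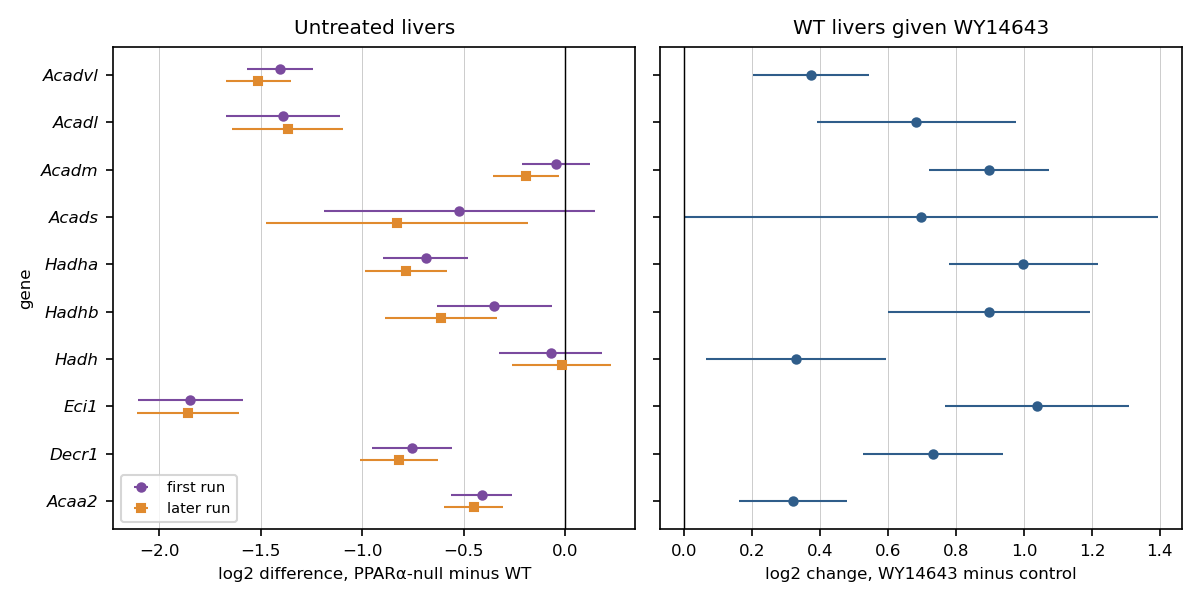
Left, difference of each gene between untreated PPARα-null and WT livers in log2, in the first run (circles) and the later run (squares). Right, change of each gene in WT livers given WY14643 against control. Points are estimates of the fit and bars 95% confidence intervals. Acadm lies at -0.05 and -0.19 on the left and at 0.90 on the right, whereas Acadvl lies at -1.41 and -1.51 on the left and at 0.37 on the right.

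WY14643, a synthetic PPARα agonist, raised 8 of the 10 genes in WT livers, against 11.4% of all genes. In 9 of the 10 every treated liver was above every control, and the share of all genes with such a separation was not counted. All 10 changes were above 0, and their median was 0.71 log2, where the median over all genes was -0.08. None of the 10 rose in PPARα-null livers, where 0% of all genes did, and at an unadjusted p under 0.05 the change of 1 of the 10 passed there against 6.61% of all genes.

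Hadha was at 10.87, 11.02, 11.07 and 11.09 log2 in WT livers given WY14643, against 10.08, 9.78 and 10.19 in controls. The change was 1.00 ± 0.11, or 2.00-fold (adjusted p = 1.4e-11). In PPARα-null livers Hadha was at 9.27, 9.27, 9.39, 9.48 and 9.30 against 9.45, 9.35, 9.36, 9.31 and 9.18, and 4 of the 5 treated livers lay within the range of the controls. Eci1 was at 10.97, 11.03, 10.93 and 10.86 log2 in treated WT livers against 9.87, 9.77 and 10.08 in controls, a change of 1.04 ± 0.14, or 2.05-fold (3.5e-09). Acadm was at 11.98, 12.14, 12.01 and 12.08 against 11.22, 11.01 and 11.23, a change of 0.90 ± 0.09, or 1.86-fold (2.4e-13). Acadm thus rose in WT livers although its untreated difference between the genotypes was not called. In PPARα-null livers Acadm was at 11.15, 11.23, 11.15, 11.19 and 11.10 with WY14643 against 11.17, 11.17, 11.17, 11.05 and 10.98 in controls.

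Hadhb rose by 0.90 ± 0.15 (adjusted p = 1.6e-06), with 11.63, 11.36, 11.18 and 11.63 log2 in treated WT livers against 10.73, 10.33 and 10.61 in controls. Both subunits of the trifunctional protein were therefore higher in every treated WT liver than in any control. Decr1 rose by 0.73 ± 0.10 (3.5e-08) and Acadl by 0.68 ± 0.15 (0.00019). Acadvl and Acaa2 rose less, by 0.37 ± 0.09 (0.00047) and 0.32 ± 0.08 (0.0013). Hadh was above its controls in each liver, at 12.71 to 12.83 log2 against 12.18 to 12.59, but its change of 0.33 ± 0.13 missed the threshold (0.058), while a second Hadh probeset, 1460184_at, passed at 0.51 (0.0073). Acads was at 8.34, 8.02, 7.91 and 7.38 log2 against 6.47, 7.94 and 7.24, overlapped with its controls and gave 0.70 ± 0.35 (0.14).

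Other probesets of the same genes showed the same direction in WT livers given WY14643. The second Hadhb probeset rose by 1.00 (adjusted p = 3.5e-09) and the third one, 1442732_at, whose signal was low in part of the livers, by 2.15 (1.8e-07). The second Decr1 probeset, 1449443_at, rose by 1.76 (4.9e-07), and the remaining Acaa2 probesets rose by 0.36 (0.03) and 0.39 (0.00077). Of the 17 probesets 14 rose. The brightest probesets of Hadhb, Hadh and Acaa2 carry the suffixes _x_at and _s_at, with which the manufacturer marks probes that can match more than 1 transcript.

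**Figure D2:**
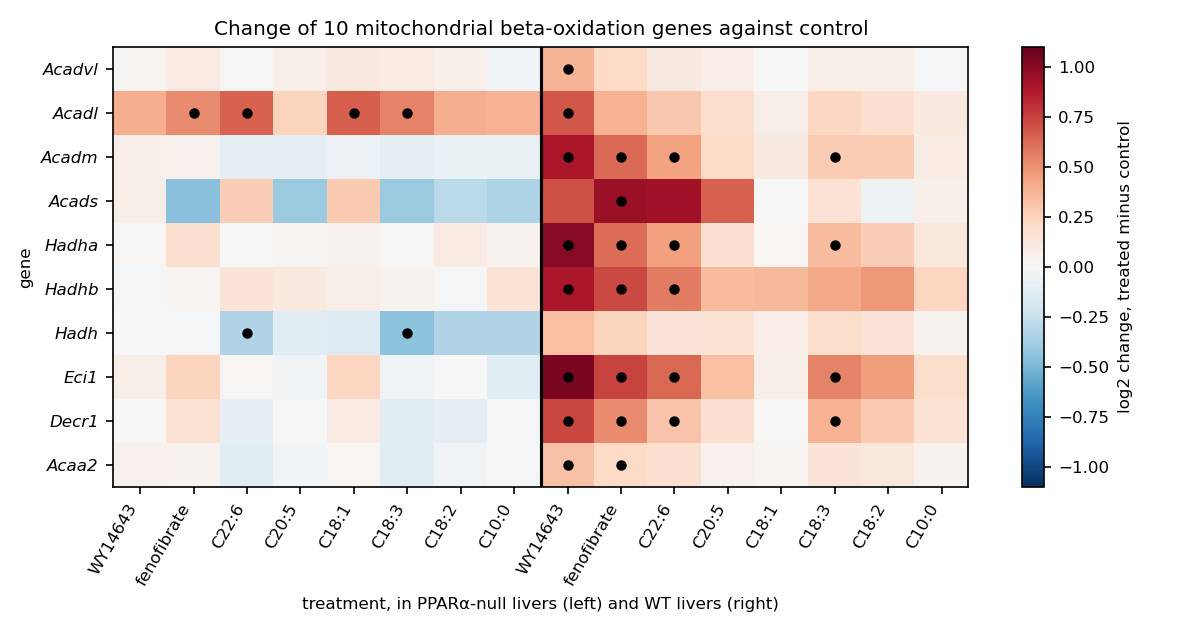
Change of each of the 10 genes (rows) against the control of its run and genotype in log2, for the 8 treatments in PPARα-null livers (left of the line) and in WT livers (right of the line). Red is higher with treatment and blue lower, and a black dot marks an adjusted p under 0.05. WT livers held 8 dots for WY14643, 7 for fenofibrate, 5 for C22:6 and 4 for C18:3, and in PPARα-null livers dots occurred for Acadl and Hadh.

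Fenofibrate, a fibrate drug that is hydrolysed to a PPARα agonist, raised 7 of the 10 genes in WT livers, against 6.73% of all genes. In 8 of the 10 every treated liver was above every control, and here too the share of all genes was not counted. The median change was 0.56 log2, against -0.05 over all genes. Acadm was at 11.76, 11.83, 11.67, 11.74 and 11.88 log2 against 11.22, 11.01 and 11.23 in controls, a change of 0.62 ± 0.08, or 1.54-fold (adjusted p = 3.7e-08). Hadha was at 10.63, 10.75, 10.58, 10.56 and 10.62 against 10.08, 9.78 and 10.19, a change of 0.61 ± 0.10 (9.2e-06). Neither gene overlapped with its controls. Eci1 rose by 0.74 ± 0.13 (1.3e-05), Hadhb by 0.72 ± 0.14 (1e-04) and Decr1 by 0.52 ± 0.10 (7e-05).

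Acads and Acaa2 were close to the threshold with fenofibrate, both at an adjusted p of 0.048. Acads was at 8.28, 7.60, 8.29, 8.13 and 8.51 log2 against 6.47, 7.94 and 7.24, so the groups overlapped, and without WT control replicate 1 its change was 0.57 (0.40) in place of 0.95. Acaa2 changed by 0.21 and its call was lost in 7 of the 8 fits that left out 1 liver. Acadl at 0.38 (0.063), Acadvl at 0.22 (0.064) and Hadh at 0.25 (0.22) were not called, although each treated liver was above each control for Acadl and Acadvl. In a fit of the 2 groups alone Acadl passed (0.039), and Acads (0.12) and Acaa2 (0.19) did not. A replicate block gave 0.066 for Acads and 0.097 for Acaa2.

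Among the triglycerides of the first run, C22:6 raised 5 of the 10 genes in WT livers, against 3.23% of all genes, with a median change of 0.38 log2 against -0.03 over all genes. Eci1 was at 10.59, 10.52, 10.21, 10.35 and 11.05 log2 against 9.87, 9.77 and 10.08 in controls, a change of 0.63 ± 0.13, or 1.55-fold (adjusted p = 0.00085). Acadm was at 11.67, 11.59, 11.42, 11.67 and 11.65 against 11.22, 11.01 and 11.23, a change of 0.44 ± 0.08, or 1.36-fold (0.00029). Every treated liver exceeded every control for both genes. Hadhb, which also did not overlap, rose by 0.57 ± 0.14 (0.0071). Hadha rose by 0.45 ± 0.10 (0.0039) and Decr1 by 0.31 ± 0.10 (0.044), each with 1 or more treated livers within the range of the controls. Acads changed by 0.93 (0.091), Acadl by 0.30 (0.23), Acaa2 by 0.18 (0.18), Hadh by 0.14 (0.63) and Acadvl by 0.10 (0.58).

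The count for C22:6 depended on single livers of the small control group. Without WT control replicate 2, which was the lowest of the 3 WT controls for Acadm, Hadha, Hadhb and Eci1, 3 of the 10 genes were called, and Hadha at 0.33 (adjusted p = 0.10) and Hadhb at 0.46 (0.10) were not. The call for Decr1 was lost in 5 of the 8 fits that left out 1 liver and with a replicate block (0.055). In a fit of the 2 groups alone none of the 10 passed, with Acadm at 0.11 and Eci1 at 0.16. These 3 WT controls were shared by all 5 WT comparisons of the first run.

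C20:5 and C18:1 gave smaller values from the same controls. None of the 10 genes was called with C20:5, where 0.465% of all genes rose, and 3 passed at an unadjusted p under 0.05 against 9.79% of all genes. The median change was 0.19 log2. Acadm was at 11.41, 11.42, 11.26, 11.42 and 11.38 log2 against 11.22, 11.01 and 11.23, so every treated liver was above the controls, and its change was 0.22 ± 0.08 (adjusted p = 0.33). None was called with C18:1 either, where 0% of all genes rose, and 1 of the 10, Hadhb, passed at an unadjusted p under 0.05 against 8.86% of all genes. The median change was 0.05 log2 and 9 of the 10 changes lay between 0.00 and 0.10.

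**Figure D3:**
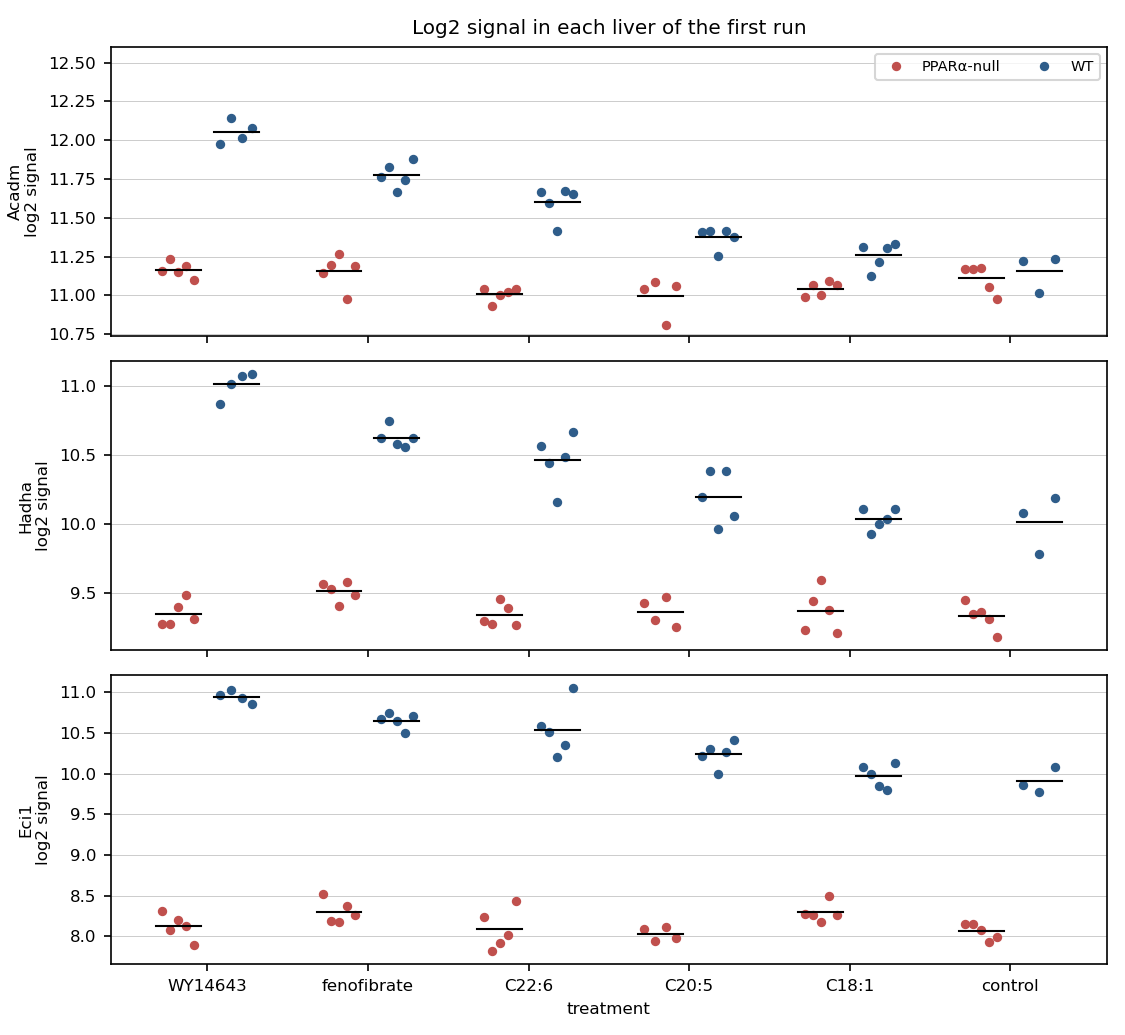
Log2 signal (vertical axes) of Acadm, Hadha and Eci1 in each liver of the first run by treatment, PPARα-null in red and WT in blue. Points are livers and lines group means. In WT livers the Acadm signal was 11.98 to 12.14 with WY14643 and 11.01 to 11.23 in controls, and in PPARα-null livers it was 11.10 to 11.23 with WY14643 and 10.98 to 11.17 in controls.

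In the later run C18:3 raised 4 of the 10 genes in WT livers, against 2.16% of all genes, with a median change of 0.25 log2 against -0.02 over all genes. Eci1 was at 10.63, 10.97, 11.26, 10.49 and 10.62 log2 against 10.23, 10.28, 10.19 and 10.28 in controls, without overlap, a change of 0.55 ± 0.12, or 1.46-fold (adjusted p = 0.0024). Decr1 was at 9.69, 9.92, 10.19, 9.78 and 9.88 against 9.26, 9.58, 9.55 and 9.66, a change of 0.38 ± 0.09 (0.0074). Both auxiliary enzymes for double bonds among the 10 thus rose with this triglyceride, as they did with WY14643, fenofibrate and C22:6. Neither was called between C18:3 and C18:2. Hadha rose by 0.34 ± 0.10 (0.028) and Acadm by 0.28 ± 0.08 (0.028), and Hadhb at 0.42 ± 0.13 missed the threshold (0.06) while its second probeset passed at 0.39 (0.034). Replicate 3 was the highest of the treated livers for each of these genes, and without it, or without WT control replicate 1 of the later run, 1 gene was called. Without C18:3 replicate 2 it was 2. None passed in a fit of the 2 groups alone, with Eci1 at 0.19.

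C18:2 and C10:0 gave no called change. With C18:2 0.315% of all genes rose in WT livers, and 5 of the 10 genes, Eci1, Hadhb, Acadm, Decr1 and Hadha, passed at an unadjusted p under 0.01, against 2.34% of all genes that passed and rose. The same 5 passed at an unadjusted p under 0.05, against 10.5% of all genes. Eci1 was at 10.62, 10.48, 10.71 and 11.02 log2 against 10.23, 10.28, 10.19 and 10.28, so every treated liver lay above the controls, with a change of 0.46 ± 0.13 (adjusted p = 0.069). Hadhb changed by 0.48 ± 0.14 (0.098) and Acadm by 0.28 ± 0.08 (0.11), and the median of the 10 was 0.23. With C10:0, the triglyceride of a saturated fatty acid of medium chain, 0.946% of all genes rose in WT livers. None of the 10 passed at an unadjusted p under 0.05, against 14.4% of all genes, and the median change was 0.09. None of the 10 was free of overlap with its controls, and the share of all genes free of overlap was not counted.

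**Figure D4:**
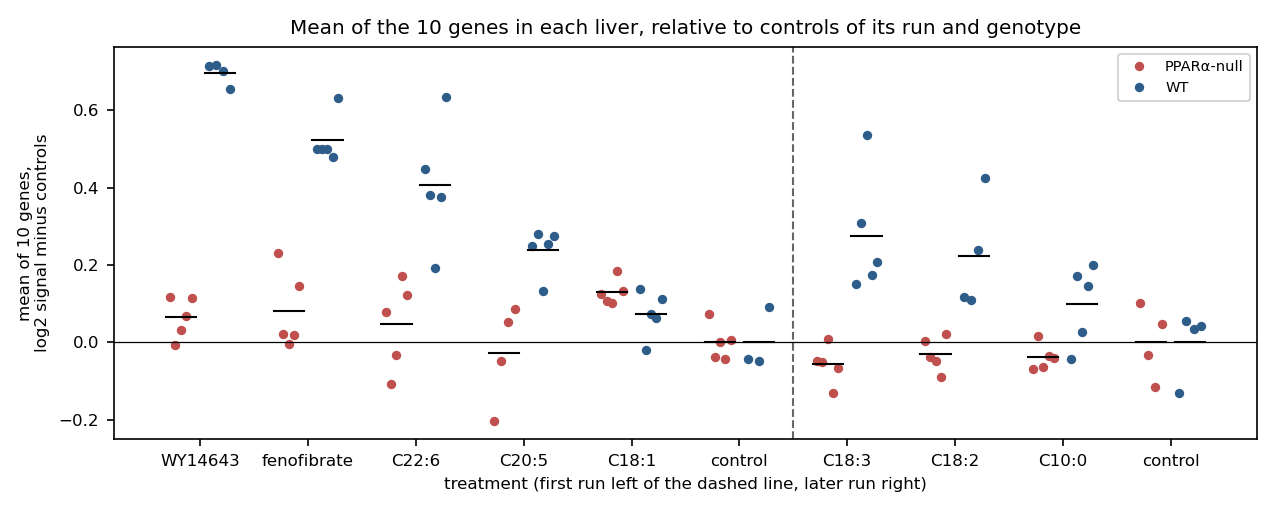
Mean log2 signal of the 10 genes in each liver minus the mean of the controls of its run and genotype, PPARα-null in red and WT in blue. Points are livers, short lines group means, and the dashed line parts the first run (left) from the later run (right). The 4 WT livers given WY14643 were at 0.65 to 0.72 and the 5 given fenofibrate at 0.48 to 0.63, whereas those given C22:6 spread from 0.19 to 0.63.

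Averaged over the 10 genes, a WT liver stood 0.65 to 0.72 log2 above its controls with WY14643, 0.48 to 0.63 with fenofibrate, 0.19 to 0.63 with C22:6, 0.13 to 0.28 with C20:5 and -0.02 to 0.14 with C18:1. In the later run it was 0.15 to 0.54 with C18:3, 0.11 to 0.42 with C18:2 and -0.04 to 0.20 with C10:0. In PPARα-null livers the same mean ran from -0.20 to 0.23 over all treatments. The 10 genes did not follow this mean equally. Across the 93 livers, which share controls and runs, each gene's deviation from its controls correlated with the mean of the other 9 at r = 0.91 for Eci1, 0.89 for Acadm, 0.87 for Decr1 and 0.85 for Hadha, but at 0.50 for Acads and 0.12 for Acadl.

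The difference between the genotypes in the change itself was tested as an interaction, and values are the change in PPARα-null livers minus the change in WT livers. For WY14643 6 of the 10 genes had a lower change in PPARα-null livers, against 7.27% of all genes. They were Hadha at -0.98 ± 0.14 (adjusted p = 2.4e-07), Eci1 at -0.98 ± 0.18 (2.1e-05), Hadhb at -0.92 ± 0.19 (0.00026), Acadm at -0.84 ± 0.11 (4.9e-08), Decr1 at -0.73 ± 0.13 (2.9e-05) and Acadvl at -0.34 ± 0.11 (0.025). For each, the PPARα-null change was between -0.02 and 0.06, so the difference was close to the whole WT change. Acadl at -0.28 ± 0.19 (0.37) was not called, and it changed by 0.40 (0.36) in PPARα-null livers and by 0.68 in WT livers.

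For fenofibrate 4 genes had a lower change in PPARα-null livers, against 3.75% of all genes, namely Acads at -1.41 (adjusted p = 0.038), Hadhb at -0.70 (0.012), Acadm at -0.57 (0.00028) and Hadha at -0.43 (0.042). With a replicate block Hadha was not called (-0.41, 0.06). The WT change of Acads was 0.95 with overlapping groups, and it lost its call without 1 of the WT controls. Acads changed by -0.46 in PPARα-null livers, which was not called. For C22:6 2 genes had a lower change in PPARα-null livers, against 2.27% of all genes, Eci1 at -0.61 (0.032) and Acadm at -0.55 (0.0015). For C18:3 2 genes had a lower change, against 0.54% of all genes, Hadh at -0.65 (0.032) and Decr1 at -0.50 (0.036). Hadh changed by 0.20 (0.47) in WT livers, which was not called, and by -0.45 (0.0083) in PPARα-null livers. Decr1 changed by 0.38 (0.0074) in WT livers and by -0.12 (0.43) in PPARα-null livers. In a fit of the 4 groups alone the counts were 2 for fenofibrate and 0 for C22:6 and for C18:3, and without single livers they ran from 2 to 5, from 1 to 6 and from 0 to 3. No gene was called for C10:0, C18:1, C18:2 or C20:5, and at an unadjusted p under 0.05 the counts were 1, 1, 5 and 3 of 10, where 6.41%, 9.29%, 5.58% and 4.94% of all genes passed.

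In PPARα-null livers some of the treatments raised Acadl. It rose with C18:1, C22:6, C18:3 and fenofibrate, and was the single gene of the 10 called in that direction in each of them, against 0.886%, 6.44%, 5.21% and 0.105% of all genes. For C22:6 and C18:3 a count of 1 in 10 is near the share of all genes. The C18:1, C22:6 and fenofibrate groups were compared with the same PPARα-null controls. With C18:1 Acadl was at 9.95, 10.01, 10.13, 10.21 and 9.91 log2 in PPARα-null livers against 9.41, 9.35, 9.75, 9.33 and 9.07 in their controls, without overlap, a change of 0.66 ± 0.12, or 1.58-fold (adjusted p = 0.0012). With C22:6 it was at 9.68, 10.49, 10.07, 9.98 and 9.93 against the same controls, a change of 0.65 ± 0.12 (0.00043), and 1 treated liver lay below the highest control. All these levels stayed below the 10.73 to 10.80 of untreated WT livers of the run.

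With fenofibrate Acadl was at 9.98, 9.84, 9.90, 9.96 and 9.84 log2, each above the highest control, a change of 0.52 ± 0.12 (adjusted p = 0.048). This call was lost in 9 of the 10 fits that left out 1 liver and when arrays were centred or quantile-normalized. With C18:3 Acadl was at 10.03, 10.18, 9.71, 9.48 and 10.56 log2 against 9.54, 9.24, 9.22 and 9.79 in PPARα-null controls of the later run, with overlap, a change of 0.55 ± 0.13 (0.004), and without C18:3 replicate 5 it was 0.40 (0.058). In a fit of the 2 groups alone the adjusted p of Acadl was 0.055 for C18:1, 0.17 for C22:6, 0.21 for C18:3 and 0.73 for fenofibrate. The other 4 treatments gave 0.40 (0.36) for WY14643, 0.40 (0.13) for C18:2, 0.38 (0.059) for C10:0 and 0.25 (0.98) for C20:5.

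The changes of Acadl were not shown to differ between the genotypes. With C18:1 it changed by 0.66 in PPARα-null livers and by 0.07 in WT livers, a difference of 0.60 ± 0.19 with an adjusted p of 0.41, and for C22:6, C18:3 and fenofibrate the difference was 0.35 (0.32), 0.32 (0.45) and 0.14 (0.72).

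In PPARα-null livers a single gene of these enzymes was called lower with C18:3 and with C22:6, where 4.89% and 9.29% of all genes fell. For both treatments this count is near the share of all genes. Both times the gene was Hadh. With C18:3 it was at 12.61, 12.17, 12.71, 12.36 and 12.10 log2 against 12.72, 12.97, 12.65 and 13.03 in controls, a change of -0.45 ± 0.12 (adjusted p = 0.0083), and a second probeset fell by 0.52 (0.0073). With C22:6 it was at 12.20, 11.59, 12.04, 12.37 and 12.03 against 12.40, 12.49, 12.29, 12.22 and 12.51, a change of -0.33 ± 0.11 (0.03), and the other 2 probesets gave -0.30 (0.095) and -0.35 (0.058). Replicate 2 of C22:6 was far below the others, and without it the change was -0.22 (0.25). This call was also lost without C22:6 replicate 3 (0.055), without control replicate 1 (0.061), 2 (0.082) or 5 (0.074), and with array weights (-0.25, 0.16). Without C18:3 replicate 5 the change with C18:3 was -0.38 (0.062), and in fits of the 2 groups alone the adjusted p was 0.15 for C18:3 and 0.27 for C22:6. The same direction was present with C10:0 and C18:2, each at -0.33 (0.066 and 0.18).

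No gene of the 10 rose in PPARα-null livers with C10:0, C18:2 or C20:5, where 3.02%, 0.12% and 0.015% of all genes did. At an unadjusted p under 0.05 the counts were 2, 2 and 0 of 10, where 23.6%, 13.4% and 5.43% of all genes passed.

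Macrophage markers were called in some of the comparisons in which Acadl or Hadh was called, but not in all of them. In PPARα-null livers 4 of the 7 markers of Kupffer cells and macrophages rose with C22:6 and 1 of the 7 with C18:1, against 6.44% and 0.886% of all genes. None of the 7 was called with C18:3 or fenofibrate. Their summed level was 10.43 to 11.26 log2 with C22:6, 10.46 to 10.93 with C18:1 and 10.18 to 11.18 with fenofibrate, against 8.20 to 10.89 in controls of the first run. With C18:3 it was 9.87 to 10.53 against 9.98 to 10.76. The 7 hepatocyte markers summed to 15.87 to 16.11 with C22:6 and 16.04 to 16.13 with C18:1 against 15.99 to 16.06. Markers of other cells were called as well. With C22:6 1 of the 4 endothelial markers rose and the red blood cell marker Alas2 was lower, at -0.64. With C18:3 1 hepatocyte and 1 endothelial marker rose. The part of the macrophage and other marker transcripts in the changes of Acadl and Hadh was not tested.

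**Figure D5:**
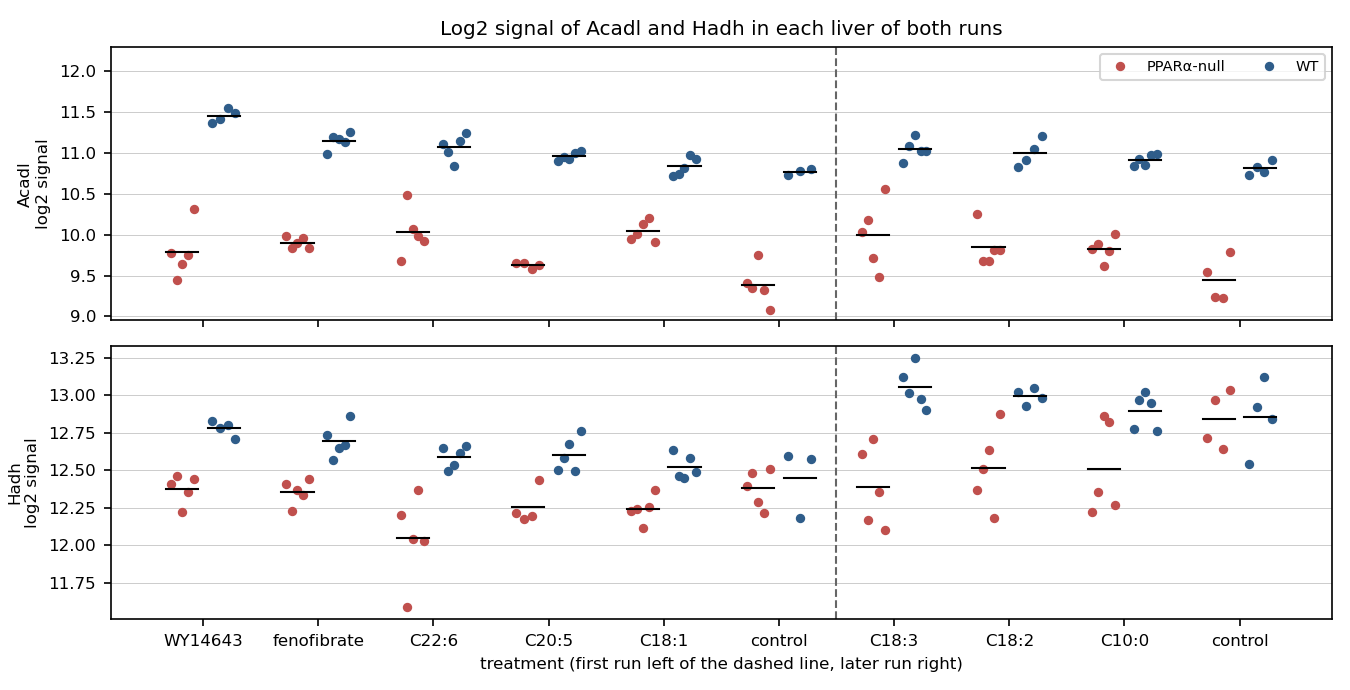
Log2 signal (vertical axes) of Acadl and Hadh in each liver of both runs by treatment, PPARα-null in red and WT in blue, with the first run left of the dashed line. Points are livers and lines group means. PPARα-null controls of the first run had an Acadl signal of 9.07 to 9.75, and every PPARα-null liver given C18:1 or fenofibrate lay above that range.

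Within a run, treatments of 1 kind, given at the same dose and time, were compared with each other in WT livers as 7 pairs, with p-values adjusted over all probesets and all pairs. C22:6, with more double bonds and a longer chain than C18:1, gave higher levels of 3 of the 10 genes than C18:1, against 1.83% of all genes. Eci1 was at 10.59, 10.52, 10.21, 10.35 and 11.05 log2 with C22:6 and at 10.08, 10.00, 9.84, 9.80 and 10.14 with C18:1, without overlap, a difference of 0.57 with a 95% confidence interval of 0.35 to 0.79 (adjusted p = 0.0018). Hadha differed by 0.43, with an interval of 0.25 to 0.61 (0.0049), and Acadm by 0.34, with an interval of 0.20 to 0.49 (0.0052). Counted by any probeset, Hadhb and Decr1 passed as well. None passed in a fit of the 2 groups alone, with Hadha at 0.13.

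WY14643 and fenofibrate were given at the same dose by weight but to mice of different age ranges. Of the 10 genes 1 was called higher with WY14643 than with fenofibrate, against 0.616% of all genes called higher, and none was called lower. Hadha was at 10.87 to 11.09 log2 with WY14643 and 10.56 to 10.75 with fenofibrate, a difference of 0.39 with an interval of 0.19 to 0.58 (adjusted p = 0.029). For 5 of the 10 genes every liver given WY14643 exceeded every liver given fenofibrate. Of these only Hadha was called, and the share of all genes with such a separation was not counted. The call for Hadha was lost without single livers in 6 of 9 cases and in a fit of the 2 groups alone (0.097), and a replicate block added Acadm, at 0.29 (0.047) against 0.28 (0.076).

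The other 5 pairs gave no called gene. For C22:6 against C20:5 and C20:5 against C18:1, 3 of the 10 genes each passed at an unadjusted p under 0.05, where 7.19% and 13.1% of all genes did. Acadm differed by 0.23 between C22:6 and C20:5, with an interval of 0.08 to 0.37 (adjusted p = 0.16), and each liver given C22:6 was at or above each liver given C20:5. For C18:3 against C18:2, which has 1 double bond less, 0 of the 10 passed, where 2.39% of all genes did, and the intervals were -0.15 to 0.32 for Eci1 and -0.15 to 0.16 for Acadm. For C18:3 against C10:0 and C18:2 against C10:0, 4 and 2 of the 10 passed, where 4.83% and 6.91% of all genes did, and Eci1 differed by 0.35 (0.13 to 0.58) and 0.27 (0.03 to 0.51).

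Other genes of the pathway rose in WT livers as well, some by more than the 10 enzymes. Of 18 listed genes 16 were measured. In WT livers 10 of the 16 rose with WY14643, 7 with fenofibrate, 7 with C22:6 and 6 with C18:3. Of all genes 11.4%, 6.73%, 3.23% and 2.16% rose. The medians of the 16 were 0.50, 0.25, 0.36 and 0.25 log2. With WY14643 Crat, the carnitine acetyltransferase, rose by 2.99 (adjusted p = 1.6e-11), Acot2, a mitochondrial acyl-CoA thioesterase with the near-identical paralog Acot1, by 2.67 (8.4e-08), Slc25a20, the carnitine-acylcarnitine carrier of the inner membrane, by 1.19 (7.1e-09) and Cpt2, the carnitine palmitoyltransferase behind it, by 1.15 (5.3e-10). C10:0 raised Acot2 and Hsd17b10, C18:2 raised Acad11 and C20:5 raised Acot2, where 0.946%, 0.315% and 0.465% of all genes rose. With C18:1 none of the 16 passed even at an unadjusted p under 0.05, against 8.86% of all genes.

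In untreated PPARα-null livers 8 of the 16 were lower in each run, against 5.01% and 4.02% of all genes. They were the same 8 genes in both. Among them were Slc25a20 at -2.57 and -2.55, Eci2, a second enoyl-CoA isomerase, at -2.25 and -2.36, and Cpt2 at -1.82 and -1.81. Of the 16, 5 rose in PPARα-null livers with C18:3, 4 with C22:6 and 3 with C18:1, against 5.21%, 6.44% and 0.886% of all genes. With C10:0 3 rose, with C20:5 1 and with fenofibrate 1, against 3.02%, 0.015% and 0.105%. Slc25a20 was among the risen genes each time, at 0.56, 0.82, 0.78, 0.57, 0.66 and 0.57 log2 in that order. Cpt1a, the carnitine palmitoyltransferase of the outer membrane, rose with C18:3, C22:6 and C18:1 by 0.56, 0.44 and 0.55. With C22:6 2 of the 16 fell, against 9.29% of all genes. These were Echs1, an enoyl-CoA hydratase, by 0.24 and Acad9, an acyl-CoA dehydrogenase needed for assembly of respiratory complex I, by 0.56. Acadl was thus not the single gene of fatty acid oxidation that rose without PPARα.

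Mitochondrial genes outside the pathway were listed for comparison. Of 22 listed genes of the citric acid cycle, the respiratory chain and mitochondrial transcription 21 were measured. With WY14643 in WT livers Tfam, Cycs and Dlst rose by 0.65, 0.58 and 0.42, which is 3 of 21 against 11.4% of all genes. Fh1 fell by 0.42, which is 1 of 21 against 1083 of all 6661 genes. The median change of the 21 was -0.02 log2, beside 0.71 for the 10 enzymes. Between untreated PPARα-null and WT livers the median was -0.05 and -0.01 in the first and later run and none was called, with 5 of 21 at an unadjusted p under 0.05 in each run, where 24% and 20.5% of all genes passed.

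Outside the pathway, the 5 genes whose deviation from their controls went most closely with the mean of the 10 over the 93 livers were Lamb3 (r = 0.90), a laminin chain, Cbfa2t3 (0.89), a transcriptional corepressor, Pdk4 (0.88), a kinase that inhibits pyruvate dehydrogenase, Ehhadh (0.88), the bifunctional enzyme of peroxisomal beta-oxidation, and Cmtm4 (0.88). The livers share controls, runs and treatments, and the correlations are a description. In WT livers given WY14643 these genes rose by 5.44, 4.12, 8.36, 2.67 and 1.41 log2 in that order, each by more than the brightest probeset of any of the 10 enzymes.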

How the data were processed

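Liver RNA of 93 mice was hybridised to Affymetrix Mouse Genome 430 2.0 arrays, 1 array per liver, 56 in a first run and 37 in a later run. The authors background-corrected and summarised the probes by GC-RMA (version 2.20) with an empirical Bayes step, normalized the arrays, kept probesets with an interquartile range of at least 0.25 and deposited linear signal intensities, of which log2 was taken here. Of 11463 rows, 51 control probesets were left out. Symbols came from the platform annotation, with 10279 probesets of 1 symbol, 406 of several and 727 of none, and the number of arrays limits the precision. GC-RMA draws low signals together, so changes of dim probesets may be understated or unstable.

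Group means were fitted for the 20 groups in limma 3.58.1 (R 4.3.3), with moderated tests of each treatment against the control of its run and genotype, of genotype, of their interaction and of 7 pairs of treatments. P-values were adjusted by Benjamini-Hochberg over 11412 probesets, for the pairs over all pairs together, and 0.05 was the threshold. Counts over all genes used the brightest probeset of 6661 genes. The script was tested on simulated data. Labels do not say whether mice shared a cage or litter, so p-values measure the spread between these livers. Replicates correlated at r = 0.920 to 0.991 over 173 pairs, and none were identical.

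The 10 genes were all named, each by its brightest probeset, with the 5 outside genes most like their mean. The genes, the lists of pathway and mitochondrial genes and the marker lists of hepatocytes, Kupffer cells, stellate cells, endothelium, cholangiocytes, blood and lymphocytes were chosen with earlier results of these data known. Of the last 5 lists 5 of 6, 4 of 5, 0 of 5, 1 of 3 and 1 of 5 genes were measured. Alternatives were array centring, quantile normalization within runs, array weights, filters, smaller fits, a replicate block, other probesets and leaving out each liver.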

Additional observations from a re-analysis of the deposited data

Results flagged for a closer look

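Single livers stood apart from the rest of their group in 15 of the 190 combinations of gene and group tested for a distant highest or lowest value, where chance gives about 1 in 20. Among the PPARα-null livers, Acadvl was at 9.651 log2 in WY14643 replicate 5, against 9.179 to 9.262 in the others of its group, and at 9.167 in C22:6 replicate 3, against 9.28 to 9.324. Acadl was at 10.25 in C18:2 replicate 1, against 9.677 to 9.819. Acadm was at 10.81 in C20:5 replicate 3, against 11.04 to 11.08, and Hadh at 12.44 in C20:5 replicate 4, against 12.18 to 12.22. Hadhb was at 10.45 in C18:1 replicate 2, against 10.2 to 10.24, and at 10.21 in C18:3 replicate 4, against 10.64 to 10.75. Decr1 was at 8.791 in control replicate 1 of the later run, against 8.654 to 8.661, and at 8.384 in C18:2 replicate 4, against 8.623 to 8.665.

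Among the WT livers, C20:5 replicate 3 was low for both Acadm, at 11.26 log2 against 11.38 to 11.42, and Acaa2, at 12.03 against 12.2 to 12.27. Hadha was at 10.75 in C18:2 replicate 4, against 10.23 to 10.28, and at 10.86 in C18:3 replicate 3, against 10.28 to 10.45. Acads was at 9.08 in C22:6 replicate 5, against 7.722 to 8.047, and Decr1 at 10.34 in fenofibrate replicate 5, against 10.14 to 10.18.

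The change in PPARα-null livers differed from that in WT livers, by the interaction term of the limma fit, in 14 of 80 combinations of gene and treatment, each time being lower in PPARα-null livers. With WY14643 the difference was -0.3416 log2 for Acadvl, -0.8403 for Acadm, -0.982 for Hadha, -0.918 for Hadhb, -0.9767 for Eci1 and -0.7314 for Decr1. With fenofibrate it was -0.5745 for Acadm, -1.409 for Acads, -0.4318 for Hadha and -0.6975 for Hadhb. With C22:6 it was -0.5455 for Acadm and -0.6104 for Eci1, and with C18:3 it was -0.6496 for Hadh and -0.4976 for Decr1. With C18:3 the change of Hadh was not called in WT livers and was called lower in PPARα-null livers. The WT change of Acads with fenofibrate had overlapping groups.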

How the results depend on the processing

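No called change turned its direction in any alternative, but changes that were called in neither fit did so in 187 of 6290 values, for 60 of the 330 changes, up to one of 0.41 log2 in size, Acads in PPARα-null livers with C20:5. With the filter on the interquartile range and the filter on dim probesets all 330 single-gene results stayed on their side of the threshold. Among single genes array weights lost 3 calls and gained 19, centring lost 1 and gained 4, quantile normalization lost 5 and gained 2, an unadjusted p under 0.01 gained 38, fits of the 2 groups alone lost 24 and gained 2 of 250, and fits of the 4 groups alone lost 8 and gained 1 of 80. The numbers of called genes that moved by more than 1.5 times were the following. Array weights gave 1 lower and 1 higher gene in PPARα-null livers with C10:0, 0 lower with C22:6 and 1 higher with WY14643, 1 for the genotype difference with C22:6, 1 in WT livers with C18:2, and 1 for C18:3 against C10:0, 2 for C20:5 against C18:1, 5 for C22:6 against C18:1, 1 for C22:6 against C20:5 and 4 for WY14643 against fenofibrate. An unadjusted p under 0.01 gave 1 lower and 1 higher in PPARα-null livers with C10:0 and with C18:2 and 1 higher with WY14643, 5 in WT livers with C18:2, 2 for C18:3 against C10:0, 5 for C22:6 against C18:1, 3 for C22:6 against C20:5, 2 for WY14643 against fenofibrate, and for the genotype difference 4 with C18:2, 5 with C18:3, 1 with C20:5, 6 with C22:6 and 1 in the other direction with C18:1. A fit of the 2 groups alone, with fewer arrays to estimate the spread, gave 0 in PPARα-null livers with C18:1, C18:3, C22:6 and fenofibrate, 0 in WT livers with C18:3 and C22:6 and 0 for C22:6 against C18:1 and WY14643 against fenofibrate, and a fit of the 4 groups alone gave 0 for the genotype difference with C18:3 and C22:6 and 2 with fenofibrate. Centring gave 1 higher gene in PPARα-null livers with C10:0 and, like quantile normalization, 0 with fenofibrate, and the cause was not tested. Any probeset gave 5 for C22:6 against C18:1. The scalings moved the median of all genes by at most 0.0328 log2.

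With a replicate block within run and genotype 2 genes were called for WY14643 against fenofibrate. It ended the calls of Acaa2 (0.18 log2) and Acads (0.96) with fenofibrate and of Decr1 (0.29) with C22:6. It also ended that of the genotype difference of Hadha (-0.41) with fenofibrate. It added Acadm (0.29) for WY14643 against fenofibrate and Decr1 (0.30) for C22:6 against C18:1. The call of Acaa2 between untreated genotypes of the later run was lost as well (-0.26). Each block lay within 1 genotype, so that fit cannot decide a difference between untreated genotypes. The labels do not say what a replicate number shares, and deviations correlated above 0.1 in every pair, at 0.113 to 0.302, in 1 comparison, PPARα-null WY14643 against control.

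Leaving out 1 liver moved the number in PPARα-null livers between 0 and 1 for C10:0 lower (1 without C10:0 replicate 3 or 4) and higher (1 without C10:0 replicate 3 or control replicate 4), for C18:3 in both directions (0 without C18:3 replicate 5), for C22:6 lower (0 without C22:6 replicate 2 or 3 or control replicate 1, 2 or 5) and for fenofibrate (0 in 9 of 10). In WT livers it ran from 0 to 1 for C18:2 (1 without C18:2 replicate 2), 1 to 5 for C18:3 and 3 to 5 for C22:6, and from 0 to 1 for WY14643 against fenofibrate. The genotype difference ran from 0 to 3 for C18:3 (0 without PPARα-null replicate 2 or 5, WT replicate 3 or WT control replicate 1), from 1 to 6 for C22:6 (6 without PPARα-null replicate 4) and from 2 to 5 for fenofibrate.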
